A study of Mus musculus with 36 samples.

Results

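Tendon is a cord of collagen fibrils laid down by tenocytes, and it joins the gastrocnemius, the large calf muscle, to the skeleton. The transcription factors Scx (scleraxis) and Mkx (mohawk) direct the tenocyte programme, Tnmd (tenomodulin) is a membrane glycoprotein of mature tenocytes, and a set of glycoproteins and small leucine-rich proteoglycans coats and spaces the collagen fibrils. A piece of muscle carries some of this tissue along its edges and inner sheets, and the level of such genes in a library is used as a reading of its tendon content.

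The 10 genes described here are Tnmd, Comp, Thbs4, Fmod, Scx, Mkx, Chad, Cilp2, Kera and Dcn, of 24319 gene symbols in the deposited table. They were chosen by name as tendon genes and selected on earlier library-by-library values of the same FPKM table (fragments scaled to transcript length and library size), so their levels and their likeness are a description and support nothing. All 10 had a row, and 9 of 10 passed the filter of a mean of at least 1 FPKM that left 10837 genes for testing. Mkx, with a mean of 0.45 FPKM, did not pass it.

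Polyadenylated RNA of mouse gastrocnemius was measured in wild-type mice (WT) and in mice that lack the clock gene Bmal1 in the liver (Bmal1hep-/-). The muscle itself was not the target of the deletion. The labels do not name the Cre driver, the age or the sex of the mice, and they give no other allele or treatment. Muscle was taken at zeitgeber times (ZT) 0, 4, 8, 12, 16 and 20 h, and each of the 12 groups has 3 biological replicates, which makes 18 libraries per genotype and 36 in all.

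The muscle genes Ckm (muscle creatine kinase) and Acta1 (skeletal actin) had medians of 21683 and 31100 FPKM in WT, but Acta1 was listed at 0 in 1 library, Bmal1hep-/- ZT16 replicate 3. No read totals were at hand, so the depth behind a value is unknown. Steps between low values gave only a rough relative depth, with 65.1% of library pairs within 0.05 (log2) of it and the deepest library 1.63 times the shallowest. In 11 versions of that estimate, all tried after seeing the data, those values ran from 49.5% to 77.1% and from 1.54 to 1.68. Myh4, a fast myosin, was listed at 0 in 34 of 36 libraries and reached 8323 FPKM in the other two. Besides Bmal1hep-/- ZT16 replicate 3, 5 libraries had been picked out in earlier results as standing apart: WT ZT8 replicate 3 for hepatocyte genes, Bmal1hep-/- ZT4 replicate 1 and ZT20 replicate 3 for adipocyte genes, and Bmal1hep-/- ZT8 replicate 2 and ZT12 replicate 2 for their balance of long and short transcripts. Without these 6 libraries the count of tendon genes called was again 0 in every comparison below. That set leaves in WT ZT12 replicate 1, whose Schwann cell and nerve genes summed to 656 FPKM against a WT median of 98.9, and leaving this library out alone also gave a count of 0.

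Promoter sequences are shown for 3 genes that moved together across libraries, Fmod, Thbs4 and Tnmd. They come from RefSeq (GRCm38.p6), run from 250 bases before to 50 after the annotated start, and carry in capitals each CANNTG, the E-box that basic helix-loop-helix factors such as scleraxis can bind. The windows are chr1:134037004-134037303 on the plus strand for Fmod, chr13:92794769-92795068 on the minus strand for Thbs4 and chrX:133850758-133851057 on the plus strand for Tnmd.
Fmod: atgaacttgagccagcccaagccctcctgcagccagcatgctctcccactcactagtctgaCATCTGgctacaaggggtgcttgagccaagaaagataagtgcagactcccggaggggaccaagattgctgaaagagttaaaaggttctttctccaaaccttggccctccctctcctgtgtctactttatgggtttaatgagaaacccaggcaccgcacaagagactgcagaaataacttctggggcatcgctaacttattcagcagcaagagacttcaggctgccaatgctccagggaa
Thbs4: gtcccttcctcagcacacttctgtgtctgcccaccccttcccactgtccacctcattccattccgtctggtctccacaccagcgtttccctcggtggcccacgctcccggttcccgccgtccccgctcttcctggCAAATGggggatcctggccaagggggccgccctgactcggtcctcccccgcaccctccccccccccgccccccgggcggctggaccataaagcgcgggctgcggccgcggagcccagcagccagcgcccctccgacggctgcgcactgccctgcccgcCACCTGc
Tnmd: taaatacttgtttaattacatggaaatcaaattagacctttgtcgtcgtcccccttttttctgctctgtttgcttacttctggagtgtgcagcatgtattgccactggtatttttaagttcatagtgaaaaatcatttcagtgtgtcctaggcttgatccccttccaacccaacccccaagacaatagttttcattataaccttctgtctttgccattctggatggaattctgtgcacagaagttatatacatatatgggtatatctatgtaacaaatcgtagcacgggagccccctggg

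The promoter table matched 6 of the 10 genes. CANNTG, searched on both strands, was in 4 of the 6 windows (Fmod, Thbs4, Chad and Cilp2) and in 72.3% of all 32851 promoters of that length. The narrower CAGATG, which is one of the CANNTG words and was also searched on both strands, was in the Fmod window, where it reads CATCTG on the strand shown, and in 17.2% of all promoters. TATAAA was in the Chad window and in 13.6% of all promoters. The Tnmd window held no CANNTG.

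The most abundant of the 10 was Dcn (decorin, a proteoglycan that binds collagen fibrils), and the least abundant was Mkx. Dcn averaged 228 FPKM over the 36 libraries and Fmod (fibromodulin, a fibril-binding proteoglycan) 54.9 FPKM. Thbs4 (thrombospondin-4, a matrix glycoprotein) averaged 30.2 FPKM and Chad (chondroadherin, a leucine-rich repeat protein of cartilage and tendon) 13.4 FPKM. The lower members were Scx at 7.41, Tnmd at 5.45, Comp (cartilage oligomeric matrix protein) at 5.06, Kera (keratocan, a proteoglycan) at 3.87 and Cilp2 (cartilage intermediate layer protein 2) at 3.21 FPKM. FPKM is a level per length, so these levels can be ordered.

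Dcn was above Fmod in 36 of 36 libraries, Thbs4 above Chad in 35, Cilp2 above Mkx in 35 and Fmod above Thbs4 in 32. The order in the middle was not fixed: Chad exceeded Scx in 21 of 36 libraries, Scx exceeded Tnmd in 23, Tnmd exceeded Comp in 24, Kera exceeded Cilp2 in 23 and Comp exceeded Kera in 18. The ranges of all neighbours in this order overlapped.

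**Figure D1:**
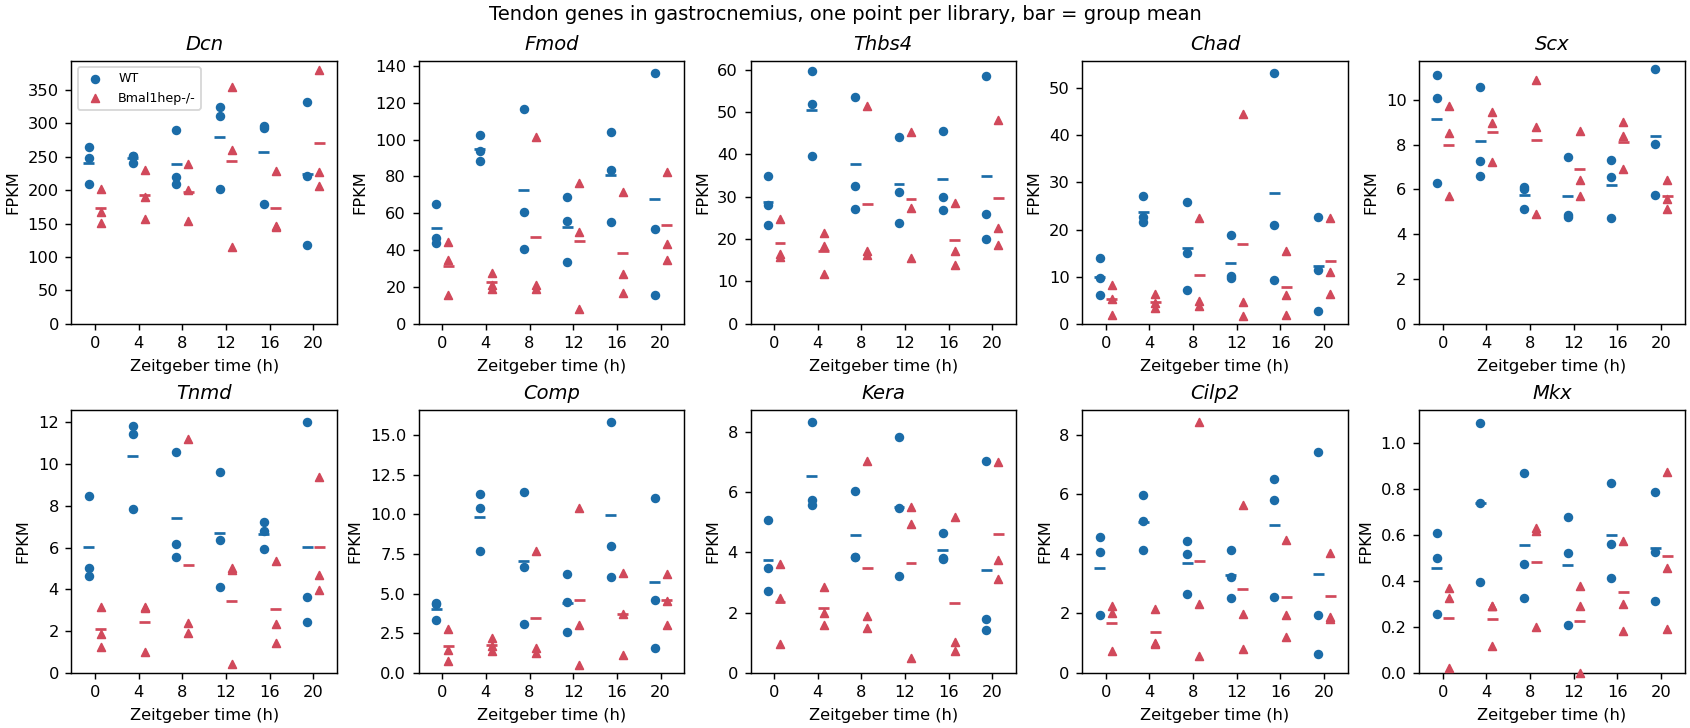
FPKM of each of the 10 tendon genes (vertical axes from 0, one panel per gene) against zeitgeber time in h, with 1 point per library, circles for WT, triangles for Bmal1hep-/- and a bar at each group mean of 3 libraries. At ZT4 the Bmal1hep-/- points lie below all WT points for 9 of 10 genes, while Scx overlaps.

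Of the regulators, Scx was the steadiest of the 10. In WT it had a lowest value of 4.72, a median of 6.59 and a highest of 11.4 FPKM, and in Bmal1hep-/- 4.90, 7.82 and 10.9 FPKM. The 2 ranges overlapped almost fully. Mkx had a lowest value of 0.210, a median of 0.524 and a highest of 1.09 FPKM in WT, and in Bmal1hep-/- a median of 0.295 and a highest of 0.876 FPKM, with Bmal1hep-/- ZT12 replicate 2 listed at 0.

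Tnmd, the tenocyte marker of the set, ranged in WT from 2.42 through a median of 6.57 to 12.0 FPKM, and in Bmal1hep-/- from 0.401 through 3.12 to 11.2 FPKM. Of the Bmal1hep-/- libraries, 8 of 18 lay below every WT library, while Bmal1hep-/- ZT8 replicate 3 and ZT20 replicate 2 were at 11.2 and 9.39 FPKM, among the high WT values.

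The thrombospondins followed the same libraries. Thbs4 ranged from 20.0 through a median of 31.9 to 59.6 FPKM in WT and from 11.8 through 18.4 to 51.4 FPKM in Bmal1hep-/-, with 10 of 18 Bmal1hep-/- libraries below every WT library. Comp ranged from 1.56 through 6.12 to 15.8 FPKM in WT and from 0.479 through 2.47 to 10.4 FPKM in Bmal1hep-/-, with 7 of 18 below every WT library. Both genotypes held high and low libraries of each gene. The lowest WT library was ZT20 replicate 3 for Thbs4 and Comp, as it was for Tnmd. The counts below every WT library thus rest on that library, and their share over all tested genes is not given here.

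Among the proteoglycans Fmod had the wider spread and Dcn the narrower. Fmod ranged from 15.4 through a median of 62.8 to 136 FPKM in WT and from 7.80 through 31.03 to 102 FPKM in Bmal1hep-/-. Dcn ranged from 118 through 249.98 to 333 FPKM in WT and from 115 through 201 to 380 FPKM in Bmal1hep-/-. The highest Dcn of all libraries was thus in Bmal1hep-/- ZT20 replicate 2, and only 1 of 18 Bmal1hep-/- libraries lay below every WT library. The lowest WT library for Dcn was again ZT20 replicate 3. Kera ranged from 1.43 through 4.25 to 8.34 FPKM in WT and from 0.489 through 2.67 to 7.04 FPKM in Bmal1hep-/-.

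Chad and Cilp2 also overlapped between genotypes. Chad ranged from 2.77 through a median of 14.5 to 53.2 FPKM in WT and from 1.64 through 5.74 to 44.6 FPKM in Bmal1hep-/-, the highest being ZT12 replicate 3. Cilp2 ranged from 0.625 through 4.09 to 7.41 FPKM in WT and from 0.557 through 1.97 to 8.43 FPKM in Bmal1hep-/-, where ZT8 replicate 3 was the highest of all 36 libraries.

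The spread within groups was large for these genes. The SD of log2(FPKM + 1) between replicates of a group was 1.08 for Chad, 0.92 for Fmod, 0.78 for Comp, 0.70 for Cilp2, 0.70 for Tnmd, 0.68 for Kera, 0.56 for Thbs4, 0.43 for Dcn and 0.31 for Scx, against a median of 0.18 over the 10837 tested genes. Chad lay above 99.5% of tested genes in this spread and Scx above 89.8%. Fewer cells of a type and less RNA per cell cannot be told apart in such bulk libraries.

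A single number per library, the tendon index, was taken as the mean over the 9 tested genes of the deviation of log2(FPKM + 1) from the gene's mean over 36 libraries. In WT the index ran from -0.81 through a median of 0.36 to 0.96, and 13 of 18 libraries were above 0. In Bmal1hep-/- it ran from -1.36 through -0.48 to 0.85, and 4 of 18 were above 0. The lowest was Bmal1hep-/- ZT12 replicate 2, picked out in earlier results for its balance of long and short transcripts. That library also held the lowest value of all 36 for Dcn, Fmod, Chad, Tnmd, Comp, Kera and Mkx. The genotypes overlapped, since WT ZT20 replicate 3 was at -0.81 and the 4 Bmal1hep-/- libraries above 0 were ZT8 replicate 3 at 0.85, ZT12 replicate 3 at 0.73, ZT20 replicate 2 at 0.66 and ZT16 replicate 3 at 0.38.

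The groups differed in how closely their 3 libraries agreed. The WT index at ZT4 was 0.77 ± 0.16 (SD, n = 3) and at ZT0 0.13 ± 0.18, whereas at ZT20 it was 0.02 ± 0.89, with single libraries from -0.81 to 0.96. In Bmal1hep-/- the index at ZT4 was -0.61 ± 0.22 (SD, n = 3), at ZT12 -0.24 ± 1.06 and at ZT8 -0.20 ± 0.92. The Bmal1hep-/- group mean was below the WT mean at 5 of 6 times and above it at ZT20, where it was 0.10 ± 0.49 (SD, n = 3). At ZT12 the Bmal1hep-/- libraries were at -0.09, -1.36 and 0.73, so the direction there rested on replicate 2.

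**Figure D2:**
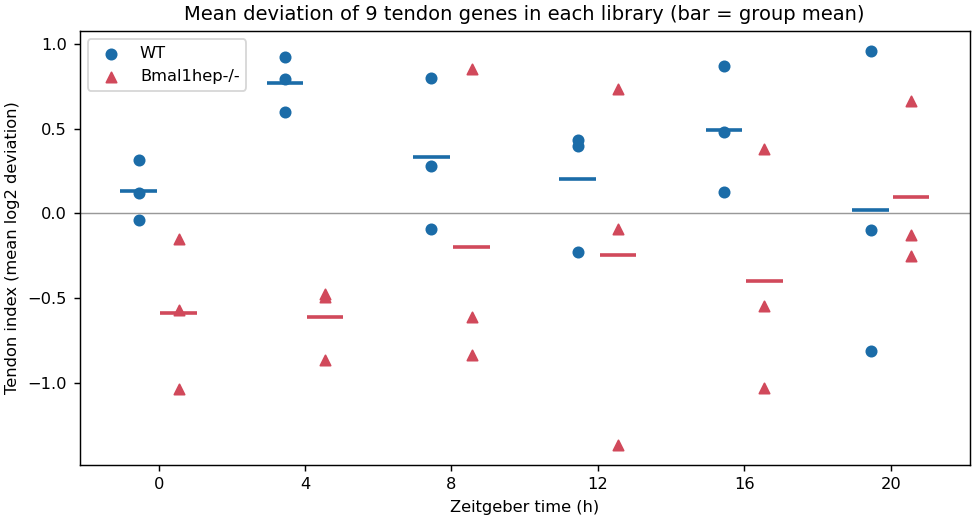
Tendon index of each library (mean log2 deviation of 9 genes) against zeitgeber time in h, with circles for WT, triangles for Bmal1hep-/- and a bar at each group mean of 3 libraries. WT ZT4 lies between 0.60 and 0.92 and Bmal1hep-/- ZT4 between -0.87 and -0.48, whereas the genotypes overlap at ZT8, ZT12, ZT16 and ZT20.

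The other genes rose and fell together from library to library, with Scx as the exception. Over the 28 pairs that leave out Scx and Mkx, Pearson's r across the 36 libraries ran from 0.64 (Dcn with Cilp2) to 0.95 (Comp with Chad), with a median of 0.85. Taken over deviations from the 12 group means, which removes genotype and time, the same pairs ran from 0.62 to 0.95 with a median of 0.85. The low-level Mkx correlated with these 8 genes at 0.61 to 0.78. Scx correlated with the 9 other genes at -0.50 to -0.19, lowest with Dcn. These r describe 36 libraries that share their preparation, carry no p, and were known in part when the genes were chosen.

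**Figure D3:**
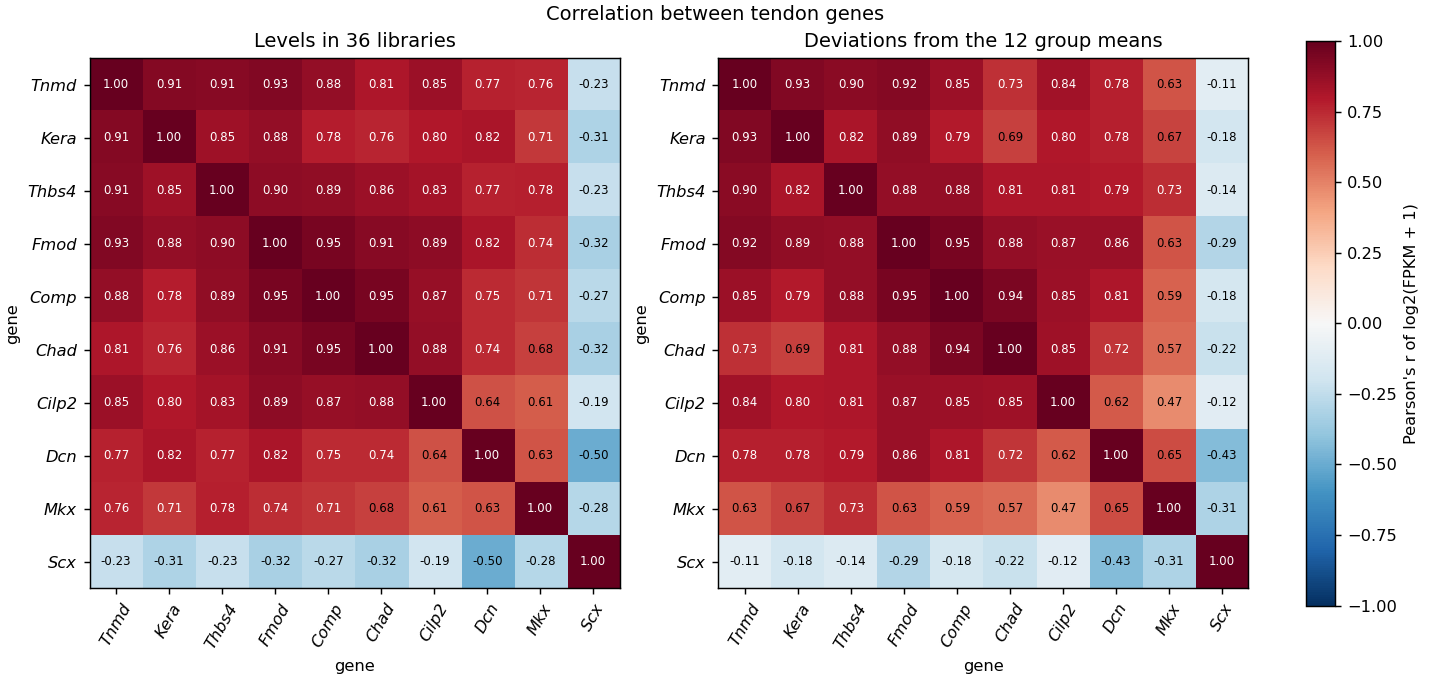
Pearson's r of log2(FPKM + 1) for each pair of the 10 genes, over the levels in 36 libraries on the left and over deviations from the 12 group means on the right, with colour from -1 (blue) to 1 (red). All pairs without Scx are positive in both panels, and all pairs with Scx are negative.

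The library-wide balance of long and short transcripts moved with both readings. It was measured as Spearman's rho, across genes, of the deviation from the gene mean with GENCODE transcript length. The tendon index correlated with it at r = 0.46 (rho 0.42) over 36 libraries, 0.43 within WT and 0.48 within Bmal1hep-/-, and at 0.33 without the 2 libraries farthest from the median balance. Scx correlated with it in the opposite sense, at r = -0.54 over 36 libraries, -0.33 within WT and -0.74 within Bmal1hep-/-. With a length trend removed from each library, the median r between the 9 tested genes was 0.82, as it was before.

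**Figure D4:**
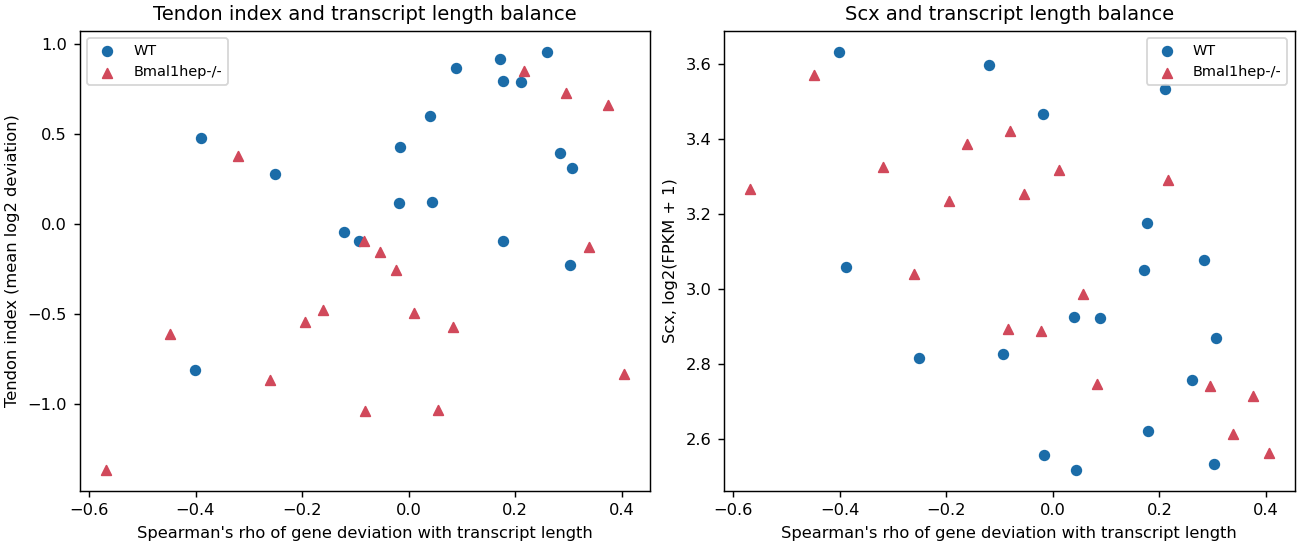
Tendon index (left) and Scx as log2(FPKM + 1) (right) against the transcript length balance of each library (Spearman's rho, horizontal axes), circles for WT and triangles for Bmal1hep-/-. The index tends upward (r = 0.46) and Scx downward (r = -0.54) over 36 libraries.

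Scx lies within the gene Bop1 on the opposite strand, with 0 exon bases shared in GENCODE, and no source used here says whether the counting used strand. Without strand, Scx reads and intron reads of Bop1 cannot be told apart. Bop1, which acts in ribosome assembly, averaged 15.5 FPKM, more than the 7.41 FPKM of Scx, and correlated with Scx at r = 0.14. Chad overlaps Acsf2 on the opposite strand, and their r was 0.06.

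Neighbours in the RefSeq gene order of GRCm38.p6 showed which genes next to the set shared its pattern. Prelp, which encodes a proteoglycan of the same family as fibromodulin and lies beside Fmod, correlated with Fmod at 0.89. Lum (lumican) lies between Dcn and Kera and correlated with Dcn at 0.81 and with Kera at 0.76. Pcdh19 beside Tnmd was at 0.54, Rab18 beside Mkx at 0.44, Hsf1 beside Scx at 0.37 and Serinc5 beside Thbs4 at 0.32. The remaining neighbours with values ran from -0.24 (Pbx4 beside Cilp2, mean 0.041 FPKM) to 0.26 (Armc4 beside Mkx, mean 0.0014 FPKM), both ends being genes of very low level. Among them the neighbours of Comp, Upf1 and Crtc1, were at -0.02 and 0.05.

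The comparison of genotypes asks whether deletion of the clock gene in liver goes with other levels in muscle. Over all 6 times 8 of 9 tested genes were lower in Bmal1hep-/-, and 0 of 9 passed the threshold of an adjusted p of 0.05, as did 0% of the 10837 genes tested. In this limma fit, 907 genes had an unadjusted p under 0.05. Tnmd had 7.20 ± 2.92 FPKM in WT and 3.69 ± 2.83 FPKM in Bmal1hep-/- (SD, n = 18 each), a log2 difference of -0.93 ± 0.23 (SE) with an adjusted p of 0.220 in limma. It was the smallest adjusted p of the 9.

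The others followed in order of p. Comp differed by -0.94 ± 0.26 (log2, SE, limma adjusted p 0.244) and Thbs4 by -0.64 ± 0.18 (limma adjusted p 0.255). Fmod differed by -0.94 ± 0.30, Chad by -0.995 ± 0.36, Cilp2 by -0.61 ± 0.23, Kera by -0.56 ± 0.22 and Dcn by -0.28 ± 0.14, with limma adjusted p of 0.333 to 0.602. Scx differed by 0.07 ± 0.10 (limma adjusted p 0.901), with a 95% interval of -0.13 to 0.28. Differences are on the log2(FPKM + 1) scale, which understates those of the genes under a few FPKM. For Mkx, fitted only when no filter on level was used, the difference was -0.22 ± 0.08 (limma adjusted p 0.466).

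**Figure D5:**
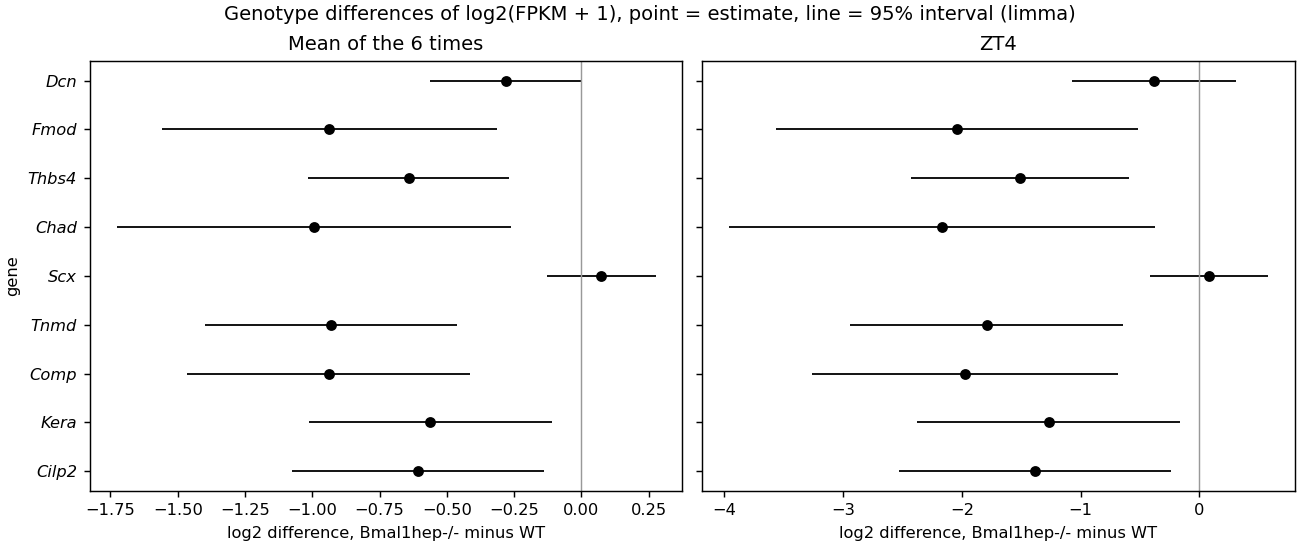
Difference of log2(FPKM + 1), Bmal1hep-/- minus WT, for the 9 tested genes over all 6 times (left) and at ZT4 (right), with the limma estimate as a point and its unadjusted 95% interval as a line. Estimates lie below 0 for 8 of 9 genes in both panels and Scx lies close to 0; none passed after adjustment over 10837 genes.

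The separation was widest at ZT4. Tnmd was at 11.8, 11.4 and 7.84 FPKM in WT and at 3.10, 1.01 and 3.13 FPKM in Bmal1hep-/-. Comp was at 10.4, 11.3 and 7.70 FPKM in WT and at 2.17, 1.36 and 1.68 FPKM in Bmal1hep-/-. Fmod was at 93.7, 103 and 88.3 FPKM in WT and at 27.7, 19.04 and 20.9 FPKM in Bmal1hep-/-. In all 3 genes every WT library lay above every Bmal1hep-/- library.

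Chad was at 22.7, 27.2 and 21.5 FPKM in WT and at 3.26, 4.36 and 6.23 FPKM in Bmal1hep-/- at ZT4. Thbs4 was at 51.9, 59.6 and 39.6 FPKM in WT and at 18.4, 11.8 and 21.5 FPKM in Bmal1hep-/-. Dcn came closest to overlapping, at 241, 251 and 252 FPKM in WT and 229.96, 190.1 and 156 FPKM in Bmal1hep-/-. Scx overlapped, at 10.6, 7.29 and 6.59 FPKM in WT and 8.98, 7.22 and 9.46 FPKM in Bmal1hep-/-.

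At ZT4, 9 of 10 genes, 8 of them among the 9 tested, had all 3 Bmal1hep-/- libraries below all 3 WT libraries, where 8.37% of the 10837 tested genes did. These genes move together, so their count is closer to a repeated reading of the same 6 libraries than to separate observations. At ZT0 3 of the 9 tested genes (Tnmd, Comp and Dcn) were separated in that way, with 5.79% of tested genes, and at ZT16 1 of 9 (Tnmd), with 3.96%. At ZT8, ZT12 and ZT20 none was, and at no time did a member have all Bmal1hep-/- libraries above all WT libraries. The transcript length balance at ZT4 also had all Bmal1hep-/- libraries below all WT libraries. It was 0.21, 0.17 and 0.04 in WT and 0.01, -0.26 and -0.16 in Bmal1hep-/-. Its part in the separation of the tendon genes at ZT4 was not tested.

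Estimates at ZT4 were -2.17 for Chad, -2.04 for Fmod, -1.98 for Comp, -1.79 for Tnmd, -1.51 for Thbs4, -1.38 for Cilp2, -1.27 for Kera, -0.38 for Dcn and 0.08 for Scx on the log2 scale. The Dcn value was -0.24 without Bmal1hep-/- ZT4 replicate 3 and -0.08 with the length balance as a covariate. With that covariate Tnmd was at -1.45 and Comp at -1.58. In the fit of all 36 libraries without a covariate, limma adjusted p ran from 0.315 to 0.941. Thus 0 of 9 were called at ZT4, as was 0% of all genes, with 982 genes at an unadjusted p under 0.05. At ZT0, ZT8, ZT12, ZT16 and ZT20 likewise 0 of 9 members and 0% of all genes were called, with 238, 334, 786, 265 and 1364 genes at an unadjusted p under 0.05. At ZT20 the estimates ran from -0.45 for Scx to 0.51 for Kera and rested on single libraries. Fmod, at 0.05, went to -0.74 without WT ZT20 replicate 3 and to 0.80 without WT ZT20 replicate 2, and Kera went to 0.19 without WT ZT20 replicate 1 and to 1.05 without WT ZT20 replicate 2. The ZT12 estimates of Comp, Thbs4, Fmod, Chad, Cilp2 and Dcn turned positive without Bmal1hep-/- ZT12 replicate 2. They ran from 0.07 for Cilp2 to 0.37 for Comp, while Tnmd (-0.30) and Kera (-0.002) stayed negative. For ZT8 each member had an estimate above 0 in some alternative, up to 0.04 for Dcn and 1.02 for Cilp2.

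Whether the genotype difference itself changed with time was tested in the same fit, and 0 of 9 members passed, with limma adjusted p of 0.899 to 0.925 and 0% of all genes called (503 at an unadjusted p under 0.05). The contrast between the ZT4 and ZT20 differences is part of that test and is given as values only.

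Rhythm over 24 h was tested in each genotype. In WT 0 of 9 were called against 6.03% of all genes, and in Bmal1hep-/- 0 of 9 against 5.47%. Scx came nearest in WT, with an amplitude of 0.33 (log2, from mean to peak), a fitted peak at 23.7 h and a limma adjusted p of 0.0894. Its WT libraries were at 6.30, 10.1 and 11.1 FPKM at ZT0 and at 4.88, 4.78 and 7.43 FPKM at ZT12, so the groups overlapped. In Bmal1hep-/- its amplitude was 0.14 (limma adjusted p 0.724). Scx passed in WT under 6 of the alternatives, among them the removal of a length trend (limma adjusted p 0.0398). Over all alternatives its limma adjusted p ran from 0.0129 to 0.544. The share of all genes called in those alternatives is not given here. The difference in rhythm between genotypes gave 0 of 9 members and 0% of all genes (435 at an unadjusted p under 0.05). Fitted WT peaks of the other 8 genes fell between 5.92 h for Thbs4 and 10.04 h for Dcn, at limma adjusted p of 0.667 to 0.952.

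Beyond the 10 genes, 19 of 10828 tested genes (0.175%) had r of at least 0.8 with the tendon index, and none had r of -0.8 or below. The closest was Itgbl1, an integrin beta-like protein, at 0.94 over 36 libraries. It was followed by Serpinf1 (a secreted serpin) at 0.93, Cpxm2 (a carboxypeptidase-like protein) at 0.93, Fbln1 (fibulin-1, a matrix protein) at 0.92 and Col1a2 (a chain of type I collagen) at 0.89. Of the 15 closest, which also held Thbs2, Mfap4, Ccdc3, Lox, Abi3bp, Prelp, Prg4, Angptl7, Clec11a and 1 predicted gene, 15 of 15 were lower in Bmal1hep-/-, with 0 called. The index they were chosen by was itself lower in Bmal1hep-/-, so their direction was largely set by that choice. Angptl7, a secreted angiopoietin-like protein, had the widest of these differences, at 19.7 FPKM in WT and 9.71 FPKM in Bmal1hep-/- (log2 -1.15 ± 0.30 SE, limma adjusted p 0.237).

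Other genes of tendon matrix, from a list of 30 enzymes and matrix proteins of which 24 were tested, followed the index closely: the list's mean deviation had r = 0.91 with it. Of those 24, 23 were lower in Bmal1hep-/- with a median log2 difference of -0.17, where the median of all tested genes was -0.003, and 0 were called. The 3 most abundant were Sparc (osteonectin) with r = 0.52 to the index, Timp2 with 0.82 and Timp3 with 0.30, the last pair being inhibitors of metalloproteinases. Summed levels of the list ran from 314 through a median of 433 to 509 FPKM in WT and from 297 through 364 to 538 FPKM in Bmal1hep-/-. Thbs2, Mfap4, Lox, Angptl7 and Clec11a are in this list and also among the closest genes named above. The index was itself lower in Bmal1hep-/-, and a list that follows it tends to share its direction. The counts of lower genes, here and in such lists below, are therefore not separate observations.

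Among 7 tested proteoglycans of the same family that are not members, 7 of 7 were lower in Bmal1hep-/- (median log2 difference -0.17, 0 called), and the list followed the index at r = 0.79. Bgn (biglycan), Ogn (osteoglycin) and Prelp had r of 0.74, 0.71 and 0.86 with it. Of 11 tested collagens 10 were lower (median -0.07, 0 called), at r = 0.66 for the list. Col1a2 and Col1a1, the chains of the main tendon collagen, had r of 0.89 and 0.79, and Col3a1, of looser connective tissue, 0.48. Regulators of tendon formation and load, 10 tested of 15, had r = 0.30, 6 of 10 lower and 0 called. Of these, Smad3 and Six2 had r of -0.07 and -0.58.

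The tissue at the muscle end of the tendon and around it was followed by 3 further lists. For the myotendinous junction, where 5 genes were tested, the list had r = 0.40 with the index, and Itga7, Nes and Col22a1 had -0.17, 0.28 and 0.37. For the tendon sheath the list of 5 tested genes had r = 0.80, but Tppp3, Clic5 and Cd55 had only -0.18, 0.21 and 0.21, and Prg4 (lubricin) had 0.86. Of 12 measured cartilage markers only Sox6 and Col9a1 were tested, and their list had r = 0.16. Sox6, a transcription factor, averaged 20.4 FPKM (r = 0.17 with the index), Col9a1, a chain of type IX collagen, 1.67 FPKM (r = 0.06) and Sox9 0.578 FPKM (r = -0.01). The structural genes Acan (aggrecan) and Col2a1 (type II collagen) averaged 0.0028 and 0.102 FPKM, and Matn1 was listed at 0 in all 36 libraries. Of 9 bone markers Alpl and Postn were tested, with r = 0.51 for the list. Alpl (alkaline phosphatase) averaged 6.42 FPKM with r = 0.04, Postn (periostin), a matrix protein shared with fibroblasts, 2.76 FPKM with r = 0.60, and Phex 0.227 FPKM with r = 0.11. Bglap2 and Ibsp were listed at 0 in all 36 libraries.

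Markers of other cell types were read against the index for the whole of each list. For fibro-adipogenic progenitors and fibroblasts, the connective tissue cells between muscle fibres, 12 of 13 genes were tested, the list had r = 0.66 with the index, and 11 of 12 were lower in Bmal1hep-/- (median -0.13, 0 called). Its summed level ran from 476 to 840 FPKM in WT and from 489 to 903 FPKM in Bmal1hep-/-, and Gsn, Ly6a and Clec3b had r of 0.64, 0.14 and 0.37. Of the genes in this list, Lum and Mfap5 are also in the lists of proteoglycans and of tendon matrix. The part of these cells in the differences of the tendon genes was not tested.

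For the lists of other cells, r of the list's mean deviation with the index was -0.03 for adipocytes, 0.16 for hepatocytes, 0.10 for endothelium, 0.07 for Schwann cells, 0.21 for macrophages and leukocytes and -0.26 for erythrocytes. It was 0.03 for the core clock. For slow and fast muscle fibres it was 0.02, but the most abundant genes of that list ran against the index: Ckm had r = -0.45, Tnnt3 (fast troponin T) -0.43 and Acta1 -0.14, or rho = -0.45 for Acta1, which is listed at 0 in 1 library. The mean deviation of that list also holds Myh4, listed at 0 in 34 of 36 libraries. Adipocyte genes, 10 of 10 tested, were all higher in Bmal1hep-/-, with a median log2 difference of 0.37 and 0 called. This is the opposite direction to 8 of the 9 tendon genes. Car3, the most abundant adipocyte gene, differed by only 0.007, and summed levels had medians of 2070 FPKM in WT and 2282 FPKM in Bmal1hep-/-, with overlapping ranges. Bmal1hep-/- ZT4 replicate 1 and ZT20 replicate 3, but no WT library, had been picked out for adipocyte genes. The difference without these libraries is not given here. Of 17 tested clock genes 16 were rhythmic in WT and 16 in Bmal1hep-/-. The tendon genes spread more between replicates than most genes, so this does not tell whether a tendon rhythm would have been found.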

How the data were processed

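The authors deposited 1 table of FPKM, with a row per gene symbol and a column for each of 36 libraries. FastQC 0.11.8, STAR and the builds mm10 and GRCm39 are named per the submitters' processing notes. No source used here gives the FPKM tool, its annotation, its use of strand or which build the table rests on. The tests used log2(FPKM + 1) of the 10837 genes that averaged 1 FPKM or more, in limma 3.58.1 (R 4.3.3, eBayes with trend and robust), as 12 group means or a 24 h cosine per genotype, with Benjamini-Hochberg adjustment over all tested genes. The fits were tested on simulated data. Labels call the replicates biological but do not say whether each is 1 mouse. Transcript lengths came from GENCODE M21, a build that may differ from the table's, and covered 96.6% of tested genes.

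The members, lists and tests were chosen with earlier results of these data known. All 10 members are named, with the 15 tested genes of highest r with the index and the 3 most abundant genes of each list, except for lists of other cell types given by r. Cartilage and bone genes at or near 0 were added after their values were seen. A gene that this rule names is not reported here. The lists hold markers of 17 tissues, cell types or gene groups. Relative depth came from steps between low values of 6015 genes averaging under 0.3 FPKM. It was set against 10 further versions, was not used in any test, and correlated with the tendon index at -0.11 to -0.05 over the 11 versions. Alternatives were a pseudocount of 0.1, other filters, rescaling, quantile normalization, a replicate block, array weights, time as a factor and leaving out each library. Python 3.11.15, numpy 2.4.6, pandas 2.3.3 and matplotlib 3.10.9 were used.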

Additional observations from a re-analysis of the deposited data

How the results depend on the processing

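Array weights moved the difference over all times by more than 1.5 times for Fmod (-0.60), Kera (-0.28) and Cilp2 (-0.39). Scx, close to 0, ran from 0.01 to 0.12 over all times and from -0.14 to 0.26 at ZT4. Over all times the sign of the genotype difference was kept by each of the 9 tested genes in all 46 alternatives, and at ZT4 by all but Scx, which was positive in 44 of 46 and fell to -0.04 without WT ZT4 replicate 3 and -0.14 with the length balance as a covariate. The count of members called over all times stayed at 0 in every alternative, as it did for rhythm in Bmal1hep-/- and for the difference in rhythm. Some alternatives came near the threshold for the genotype difference. The smallest limma adjusted p over all times was 0.0522, for Comp with array weights. At ZT4 it was 0.0772, for Tnmd without the 6 libraries that stood apart. Array weights called 2 member and time pairs at ZT8, Scx and Cilp2, both as higher in Bmal1hep-/- (Cilp2 1.02 against -0.34 without weights). They also called 4 members for genotype by time and 1, Scx, for rhythm in WT, and the weights did not fully converge. For genotype by time with these weights, Scx had an unadjusted limma p of 0.00979 and an adjusted p of 0.0465. So small an adjustment arises only where many of all tested genes pass. The share of all genes called with array weights is not given here, so these calls are not a result about the tendon genes. Scx was also the 1 member called rhythmic in WT with the length trend removed and with the length balance as a covariate. Leaving out single libraries gave counts of 0 to 1 for rhythm in WT, with 1, Scx, without WT ZT0 replicate 1, WT ZT12 replicate 3 or WT ZT20 replicate 2 (limma adjusted p 0.0402 to 0.0490). The share of all genes called rhythmic in these fits, with or without the length settings, is not given here. These calls are therefore not a result about Scx. Leaving out single libraries also moved the median r between members from 0.79 to 0.84. Within WT that median was 0.69 and within Bmal1hep-/- 0.84. The cause of these shifts was not tested. The replicate block called 0 members in each comparison; same-numbered WT and Bmal1hep-/- libraries did not deviate together (18 pairs, r -0.23 to 0.18, 3 over 0.1), so the numbers were not taken as pairs. Depth is unknown, so no floor can be given for low values such as those of Mkx.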

Other observations

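The tested genes closest to Scx in pattern were looked up after its values were seen. They were Pdgfb (a growth factor of endothelium) at r = 0.78 over 36 libraries, Pqbp1 at 0.73, Ltbp3 (a binding protein of latent TGF-beta) at 0.72, Hspb1 (a small heat shock protein) at 0.70 and Emg1 at 0.68. Over deviations from the group means these were 0.74, 0.68, 0.67, 0.67 and 0.69. With the tendon index the same genes had r of -0.35, -0.50, -0.32, -0.09 and -0.41. With the transcript length balance they had r of -0.56, -0.61, -0.40, -0.62 and -0.77.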
